A study of Homo sapiens with 4 samples.

Results

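A set of 6 genes that mark epithelial junctions or the mesenchymal state were followed through lists of m6A-enriched intervals from bronchial epithelial cells exposed to smoke extract, with and without knockdown of METTL3. The epithelial junction genes were CDH1 (E-cadherin), OCLN (occludin) and TJP1 (ZO-1), and the mesenchymal genes were CDH2 (N-cadherin), FN1 (fibronectin) and VIM (vimentin). Members were all listed intervals that shared at least 1 nt with the hg19 window of one of the genes, on the strand of that gene. This gave 30 entries of the 24729 in both lists, 18 of 13691 with METTL3 knockdown and 12 of 11038 in CSE. Because 10 of them had the same start and end in both lists, the 30 entries were 20 distinct intervals.

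The assay was MeRIP-seq, in which poly(A) RNA is precipitated with an antibody against N6-methyladenosine (m6A) and compared with RNA that was not precipitated (input). The knockdown group, called siRNA-Mettl3+CSE in the labels, carried siRNA against METTL3, and the CSE group was labelled wild type. Both groups were 16-HBE cells, an established human bronchial epithelial line, kept for 24 h in medium with 5% cigarette smoke extract (CSE), so neither was free of smoke extract. No control siRNA is named for the CSE group, so METTL3 reduction and siRNA transfection cannot be told apart. The design text gives 3 replicates per condition, but each condition was represented by 1 list, and values below therefore have no replicate spread and no test. The lists hold no expression values, so neither the knockdown nor the epithelial identity of the line was checked here. For the same reason an interval that was not listed and a transcript that was less abundant cannot be told apart, nor can fewer cells with the transcript and less transcript per cell.

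m6A is written on messenger RNA by a complex whose catalytic subunit is METTL3, at a short consensus around an adenosine followed by a cytidine. It is known to be frequent in long internal exons and around stop codons. Epithelial cells hold together through adherens junctions built on E-cadherin and through tight junctions, in which occludin spans the membrane and ZO-1 ties it to actin. In epithelial-mesenchymal transition E-cadherin and occludin are typically lost while N-cadherin, fibronectin and vimentin are gained, and cigarette smoke is a known trigger in airway epithelium.

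The intervals had the lengths of single exons. Of the 20 distinct intervals, 17 were exactly as wide as an exon of the same gene in its longest protein-coding transcript of GENCODE release 29. Against the other 5 genes, 5 of 100 pairings of an interval with a gene gave an exon of equal length. Only lengths and distances were compared, because that annotation is of GRCh38 and the lists are of hg19. The distance to at least one other matched interval equalled the distance between the exons for all 17 as well, which also settled the 3 intervals whose width equalled more than one exon. Of the matched exons, 16 were coding over their whole length and none held the stop codon. Of the 98 other exons of the same genes, 88 were wholly coding too. The stop codon lies in a single exon of each transcript, so neither count sets the matched exons apart. The 3 intervals without an exon of equal length were all in OCLN. Of these, the 803 nt interval was placed by its start alone and covered the stop codon (below).

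The exons that carry the results are shown as RNA-sense DNA from the GENCODE transcripts, 5′ to 3′. Capitals mark the m6A consensus, an AC that follows A or G, with A, G or T before that and A, C or T after the C, searched on the transcript strand alone. Overlapping matches were all counted. The first pair is the exon 14 of E-cadherin and of N-cadherin, which had an interval in both lists, followed by the other CDH1 exon of both lists.
CDH1 exon 14: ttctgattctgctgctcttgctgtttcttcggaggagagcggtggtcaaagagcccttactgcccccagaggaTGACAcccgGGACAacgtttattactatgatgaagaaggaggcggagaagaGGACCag
CDH2 exon 14: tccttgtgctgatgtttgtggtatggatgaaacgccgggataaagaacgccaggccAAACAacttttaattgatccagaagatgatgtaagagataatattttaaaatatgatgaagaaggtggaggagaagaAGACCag
CDH1 exon 3: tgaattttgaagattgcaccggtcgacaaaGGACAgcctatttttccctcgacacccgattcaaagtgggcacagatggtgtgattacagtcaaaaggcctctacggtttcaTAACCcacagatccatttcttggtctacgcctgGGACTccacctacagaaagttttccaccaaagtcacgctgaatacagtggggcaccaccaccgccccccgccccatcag
In GRCh38 these exons lie at chr16:68828174-68828304 (plus strand), chr18:27982944-27983083 (minus strand) and chr16:68801670-68801893 (plus strand).

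The next exons contrast an FN1 exon of both lists (exon 39) with its neighbour listed with knockdown alone (exon 38), and show further exons listed with knockdown alone, in OCLN, CDH2 and TJP1.
FN1 exon 39: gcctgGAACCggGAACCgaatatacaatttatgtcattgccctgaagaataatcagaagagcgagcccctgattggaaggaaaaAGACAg
FN1 exon 38: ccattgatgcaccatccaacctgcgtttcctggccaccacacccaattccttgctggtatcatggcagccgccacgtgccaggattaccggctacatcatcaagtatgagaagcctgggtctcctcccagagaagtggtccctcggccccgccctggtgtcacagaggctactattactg
OCLN exon 5: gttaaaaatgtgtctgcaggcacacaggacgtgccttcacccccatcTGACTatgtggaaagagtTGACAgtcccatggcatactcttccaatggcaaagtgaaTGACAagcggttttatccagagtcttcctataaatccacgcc
OCLN exon 8: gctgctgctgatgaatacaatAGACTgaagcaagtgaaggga
CDH2 exon 12: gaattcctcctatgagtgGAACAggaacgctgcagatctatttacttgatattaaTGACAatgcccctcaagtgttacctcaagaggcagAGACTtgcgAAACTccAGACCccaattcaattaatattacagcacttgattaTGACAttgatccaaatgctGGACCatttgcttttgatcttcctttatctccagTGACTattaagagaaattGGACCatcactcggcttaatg
TJP1 exon 6: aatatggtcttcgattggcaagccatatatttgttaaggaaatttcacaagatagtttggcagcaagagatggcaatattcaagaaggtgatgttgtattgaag
In GRCh38 the FN1 exons lie at chr2:215373322-215373411 and chr2:215375214-215375393 (minus strand), the OCLN exons at chr5:69534694-69534839 and chr5:69551544-69551585 (plus strand), the CDH2 exon at chr18:27985528-27985761 (minus strand) and the TJP1 exon at chr15:29762335-29762438 (minus strand).

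More intervals were listed with METTL3 knockdown than in CSE, 18 against 12, where the whole lists held 13691 and 11038. Covered length was 4590 nt with knockdown and 3233 nt in CSE. The intervals of both lists were the same 10, with identical borders. They made up 55.6% of the knockdown and 83.3% of the CSE members. In the whole lists 64.5% of knockdown and 80.1% of CSE intervals overlapped the other list, and 53% and 65.8%, in that order, had identical borders there. Of the 18 knockdown intervals 8 were knockdown-only, a share of 44.4% (Wilson 95% interval 24.6 to 66.3), where the whole knockdown list had 35.5%. Of the 12 CSE intervals 2 were CSE-only, a share of 16.7% (4.70 to 44.8), where the whole CSE list had 19.9%. Both background shares lie inside these intervals, which cover counting error only and treat intervals as independent. With so few members the intervals are wide, so this count cannot decide whether the 6 genes differ from the lists. OCLN contributed 4 of the 8 knockdown-only intervals. Without OCLN the counts were 14 with knockdown and 11 in CSE, with 4 knockdown-only intervals and 1 CSE-only interval.

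**Figure D1:**
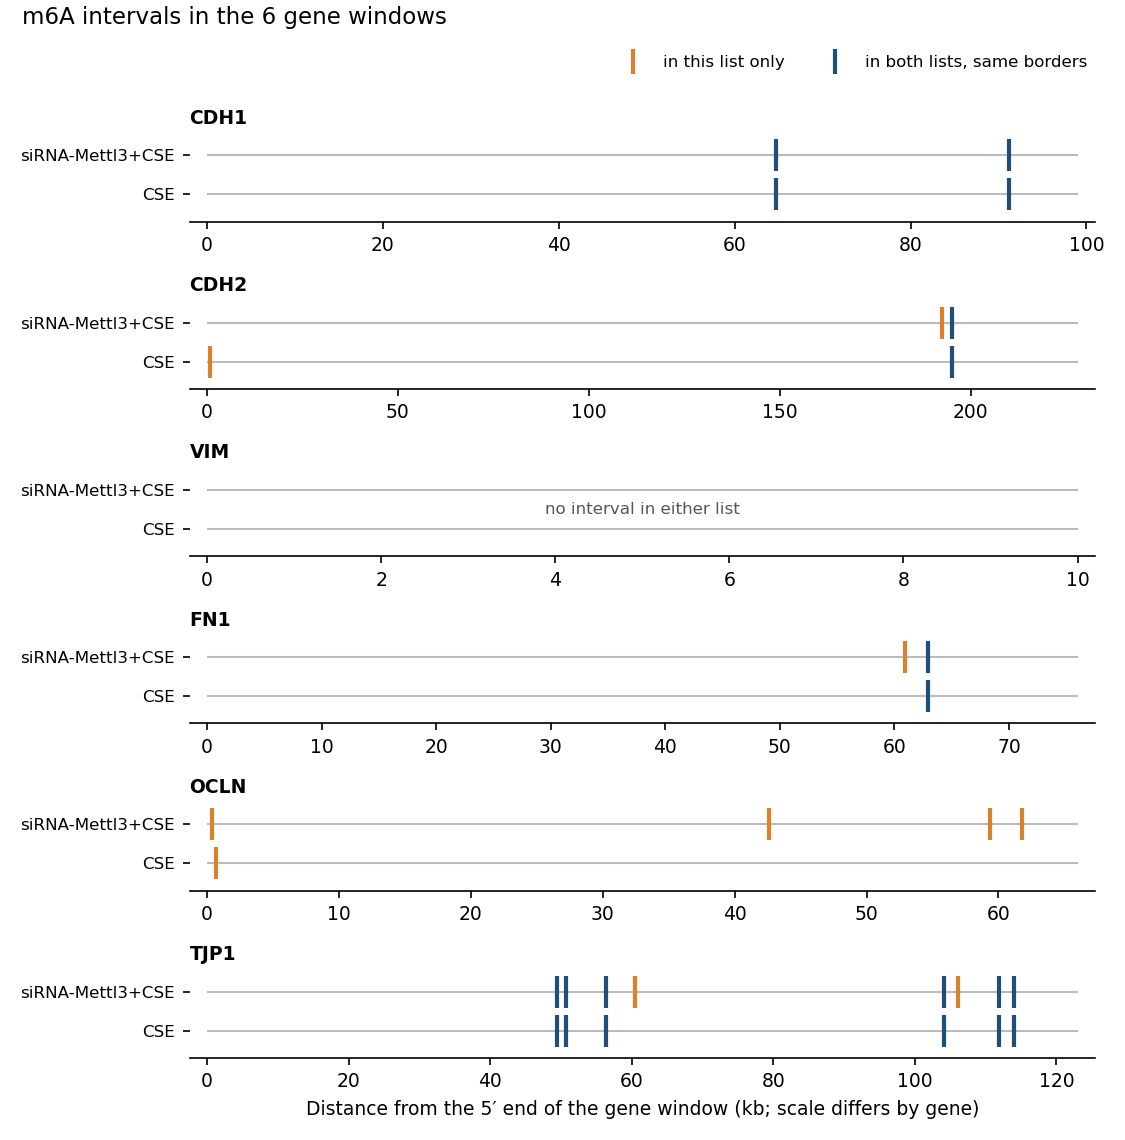
Listed m6A intervals along each gene window, with distance from the 5′ end of the window in kb on the horizontal axis and 1 row per list. Each tick marks the centre of an interval, not its width. TJP1 holds 8 ticks with knockdown and 6 in CSE, OCLN 4 and 1 with none in common, and VIM none.

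CDH1, whose product E-cadherin is the adhesion receptor of adherens junctions, had the same pair of intervals in both conditions. They lay on chromosome 16, plus strand (hg19), at 68835573 to 68835796 and 68862077 to 68862207, and measured 224 and 131 nt, the lengths of exons 3 and 14 of 16. The first had a score of 227 in the knockdown list and of 67.0 in the CSE list. This score is the authors' own, and its scale is not stated. A score therefore ranks an interval within its list and shows no change between lists. By rank the first interval stood at percentile 44.4 of the knockdown list and percentile 11.3 of the CSE list. The second scored 149 with knockdown (percentile 33.0) and 60.4 in CSE (percentile 7.32). Both CDH1 intervals thus lay below the median score of either list, and near the lower end of the CSE list. No CDH1 interval was condition-specific.

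OCLN, which codes for the tight junction membrane protein occludin, was the one gene with intervals in both lists and none in common. With knockdown 4 intervals were listed on the plus strand of chromosome 5 (hg19), covering 1233 nt. In CSE there was 1, of 138 nt. At the 5′ end of the gene the knockdown interval (68788245 to 68788486, 242 nt, score 229) and the CSE interval (68788590 to 68788727, score 69.2) lay 103 nt apart. The end of the knockdown interval was placed, by its distance to the matched exons, at the end of exon 1 of 9, which is untranslated. The CSE interval matched no exon border of that transcript. By the same placement it lay 103 nt beyond the end of exon 1, so outside that exon.

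The other OCLN intervals were listed with knockdown alone. They measured 146 nt (68830521 to 68830666, score 143), 42 nt (68847371 to 68847412, score 106) and 803 nt (68849397 to 68850199, score 68.8). The first pair had the lengths of exons 5 and 8, shown above. The 803 nt interval started where exon 9 of 4535 nt starts, by distance, and that exon holds the stop codon and the 3′ untranslated region. Of exon 9 only 99 nt are coding, so the interval as placed covered the stop codon and part of the untranslated region. The nearest CSE interval of the same strand was 41793 nt or more away from each of these downstream intervals. All 4 knockdown intervals ranked below the middle of their list, from percentile 9.66 to 44.6, and the CSE interval stood at 12.4. The 42 nt interval was among the shortest of the knockdown list, at percentile 0.570 of width. Reads of OCLN can be shared with its annotated partial copy OCLNP1, whose exons include one identical to exon 8 over all 42 nt and one identical to exon 7. The treatment of reads that map more than once was not given in the sources used here, so the exon 8 interval is uncertain. Of the 5 exons of the copy, only the 3 with the length of an OCLN exon were compared. Whether the other OCLN intervals share sequence with the copy was not examined.

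TJP1, which codes for the tight junction scaffold ZO-1, had the most and the highest-ranking intervals. All 6 CSE intervals were present with knockdown, and the knockdown list held 2 more, for 2358 nt against 2026 nt in CSE. They fell into 2 stretches of the minus strand of chromosome 15. One held exons 3 to 6 of 28, the other exons 21 and 23 to 25, with none listed for the 14 exons between exons 6 and 21. Distances between intervals equalled those between exons within each stretch of 4, but not between the stretches.

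The widest TJP1 interval, 873 nt at 30010470 to 30011342 (exon 21), scored 3100 in both lists, a value at which scores pile up. At or above it were 1170 knockdown and 660 CSE intervals. Exon 25, with 478 nt at 30000763 to 30001240, also scored 3100 with knockdown and scored 1233 in CSE (percentile 85.6). Exon 24 (170 nt, 30003035 to 30003204) scored 1788 with knockdown and 689 in CSE, which put it at percentiles 85.9 and 76.7 of these lists. In the 5′ stretch, exon 5 (277 nt) scored 1045 with knockdown and 612 in CSE, exon 4 (103 nt) 615 and 297, and exon 3 (125 nt) 339 and 144. Scores in this stretch thus decreased from exon 5 to exon 3 in both lists.

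The 2 knockdown-only intervals of TJP1 lay beside exons of both lists. One was exon 23 (228 nt, 30008815 to 30009042), between exons 21 and 24, with a score of 168. The other was exon 6 (104 nt, 30054538 to 30054641), next to exon 5, with a score of 58.5. Their percentiles were 36.1 and 4.84, below those of all 6 common TJP1 intervals in the knockdown list, the lowest of which stood at 54.8. Exon 22, between exons 21 and 23, had no interval in either list.

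Among the mesenchymal genes, CDH2, whose product N-cadherin replaces E-cadherin in the cadherin switch, had 2 intervals per list and 1 in common, on the minus strand of chromosome 18 (hg19). The common one (25562908 to 25563047, 140 nt) scored 489 with knockdown (percentile 63.8) and 152 in CSE (percentile 38.3). The knockdown list also held 234 nt at 25565492 to 25565725, the length of exon 12, with a score of 55.05. In CSE the other interval was 484 nt at 25756927 to 25757410, the length of exon 1 with the start codon, with a score of 52.55. These condition-specific intervals lay at percentiles 3.05 and 2.07 of the knockdown and the CSE list, just above the lowest score of each list. By number CDH2 was equal in both conditions, while covered length was 374 nt with knockdown and 624 nt in CSE.

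The common CDH2 interval and the second CDH1 interval lay on corresponding exons. Both had the length of exon 14 of 16, which codes for the end of the membrane-spanning segment and the start of the cytoplasmic tail in classical cadherins. Aligned end to end, the 131 nt of CDH1 and the 140 nt of CDH2 were identical in 62.4% of 141 alignment columns. This was the second highest identity among the 16 exon pairs, whose median was 58.5%. Over the last 60 nt, without gaps, identity was 73.3%, the highest of the 16 pairs (median 53.3%). A pair that needs a gap within these 60 nt falls out of register, so this ranking is not one of similarity alone. Exon pairs 3 and 12 had 20.0% by this measure, against 51.5% and 54.4% when aligned with gaps. Both exons hold a consensus site that ends 2 nt before the exon end, as the capitals show. Exon 3 of CDH1 had no listed counterpart in CDH2. This correspondence was noticed after the values had been seen.

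FN1, which codes for the matrix protein fibronectin, had 2 intervals with knockdown and 1 in CSE, on the minus strand of chromosome 2 (hg19). The interval of both lists, 90 nt at 216238045 to 216238134, scored 1047 with knockdown and 622 in CSE, at percentiles 78.5 and 74.7. It was among the narrowest intervals, at percentile 9.25 of width with knockdown and 7.45 in CSE. Its length and spacing were those of exon 39 of 46. The knockdown-only interval, 180 nt at 216239937 to 216240116 with a score of 109 (percentile 23.8), had the length of exon 38, directly upstream. No further FN1 interval was in either list.

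VIM, which codes for the intermediate filament vimentin, had no interval in either list, on either strand of its window (chromosome 10, hg19, 17270 to 17280 kb). The nearest listed intervals of its strand were the same distance away in both lists, 743185 nt below and 462189 nt above the window. VIM transcripts do hold consensus sites, 45 in the 2135 nt of the longest protein-coding transcript, or 2.11 per 100 nt. For comparison, TJP1 held 177 in 7950 nt, or 2.23 per 100 nt.

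**Figure D2:**
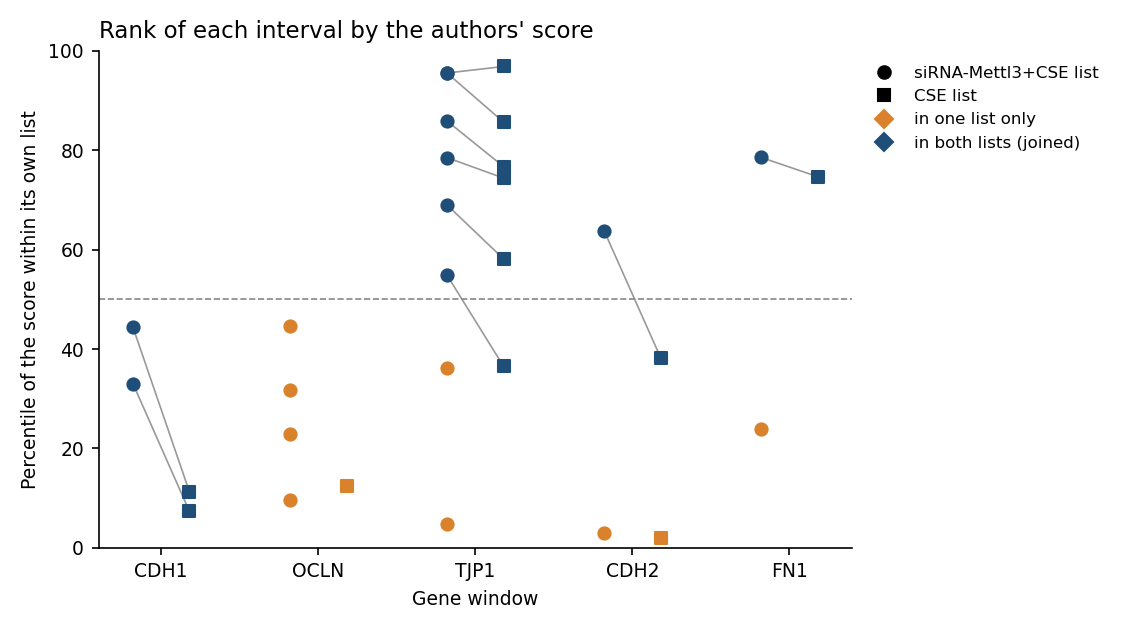
Percentile of each interval by the authors' score within its own list (vertical axis), by gene, with knockdown circles left of CSE squares and lines joining intervals of both lists. All 10 condition-specific intervals lie below the 50th percentile of their list, and every interval above it belongs to TJP1, CDH2 or FN1 and to both lists.

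In the 4 genes with condition-specific intervals, these ranked below the median score of their list. In the knockdown list 8 members reached the upper 50% by score and all of them were intervals of both lists, while 0 of the 8 knockdown-only intervals did. In the CSE list the numbers were 6 members in the upper 50% and 0 of 2 CSE-only intervals. By construction this class holds 50% of each list, but of all one-list intervals it held 18.8% of the 4855 knockdown-only and 24.5% of the 2200 CSE-only ones. Low scores of condition-specific intervals are thus a feature of the whole lists and not of these genes alone. Of the 10 common intervals, 9 ranked higher within the knockdown list than within the CSE list, and 1, TJP1 exon 21, ranked lower while tied at 3100. Over all 7258 intervals with identical borders, 64.9% ranked higher within the knockdown list, and since the lists differ in length and in their spread of scores, no change is read from these ranks.

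Interval names carry a running number that rises along the chromosome, and most numbers are not listed. If numbers count calls, unlisted calls exist. Between the CSE intervals that flank each knockdown-only interval, on either strand, at least 1 number was unlisted. For TJP1 exon 23 it was 1 number within 7265 nt, and for TJP1 exon 6 there were 2 within 47126 nt. For the 3 downstream OCLN intervals, which share their flanks, there were 12 numbers within 532344 nt. Around the VIM window 10 numbers were unlisted with knockdown and 26 in CSE. They fall between flanking intervals of either strand, far outside the window. These lay 635734 nt (knockdown) or 743185 nt (CSE) below it and 462189 nt above it in both lists. Whether an unlisted call falls on any of these places is not known.

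**Figure D3:**
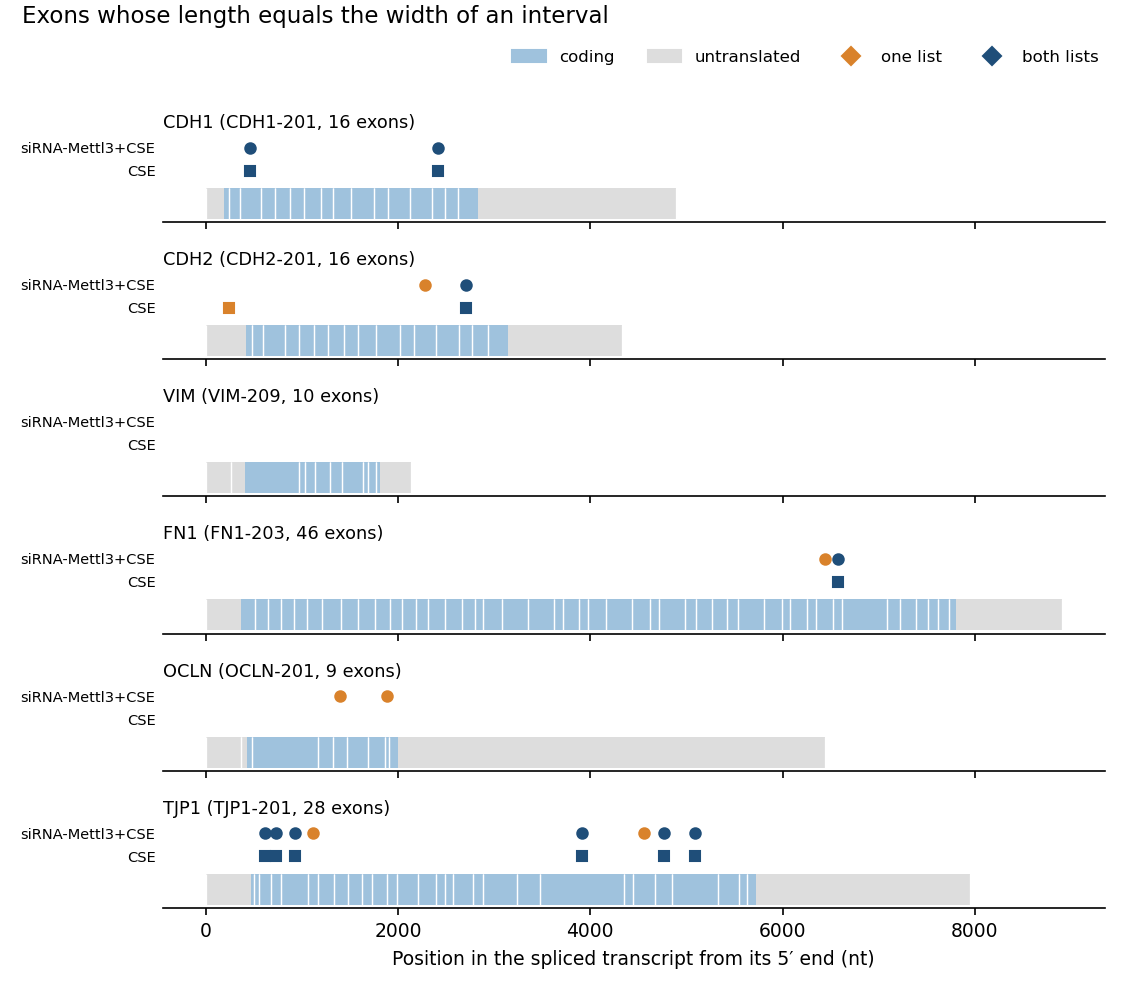
Spliced longest protein-coding transcript of each gene, with position from the 5′ end in nt, coding parts in blue and untranslated parts in grey. Symbols above mark the 17 exons as long as a listed interval, in orange where 1 list held it. TJP1 shows 2 groups of 4 exons, FN1 a pair of neighbouring exons, and none of the marked exons is a last exon.

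Matched exons were internal, except exon 1 of CDH2. They made up 8 of 28 exons in TJP1 (28.6%), 2 of 9 in OCLN (22.2%), 3 of 16 in CDH2, 2 of 16 in CDH1 and 2 of 46 in FN1 (4.35%). No interval had the length of a last exon, and the 803 nt OCLN interval was the only one whose border was placed in one. In TJP1 the last exon measured 2323 nt and held 52 consensus sites, against 57 in the 8 matched exons. The median width of the members was 175 nt with knockdown and 155 nt in CSE, below the 218 and 285 nt of the whole lists. Among members in the upper 50% by score it was 155 nt with knockdown and 223.5 nt in CSE. The order of the 2 conditions thus depends on which members are kept. Of the 18 knockdown and 12 CSE members, 3 each were over 300 nt. The share of the whole lists over 300 nt was not counted here.

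The consensus was present in 15 of the 17 matched exons. The 2 without a match, TJP1 exon 6 and FN1 exon 38, were both listed with knockdown alone. The consensus is common, and 87.5% of the 1198 exons of 104 nt and 95.8% of the 720 exons of 180 nt held at least one, counted over the longest protein-coding transcript of every gene. Exons of both lists held 63 sites in 2611 nt, or 2.41 per 100 nt, and exons of one list 21 in 1418 nt, or 1.48 per 100 nt. Other exons of the same 5 genes held 2.13 per 100 nt, and those of them that were wholly coding 2.42. The other exons include OCLN exons 1 and 9, where knockdown intervals were placed by a border alone. The wholly coding ones do not. The order of the first 2 sets turns with the measure: the median over exons was 1.77 per 100 nt in exons of both lists, 2.06 in exons of one list and 2.30 in other exons. Of the 63 sites in common exons, 27 and 16 were in TJP1 exons 21 and 25. Of exons of the same length, these included, 6.67% of 15 and 6.45% of 31 held as many. FN1 exon 39 held 3, which 29.3% of 1401 exons of 90 nt reached. The other 7 of the 10 common exons held no more than is usual, with 50.05% (CDH1 exon 14) to 95.7% (TJP1 exon 24) of exons of their length holding as many. CDH2 exon 12, listed with knockdown alone, held 9 sites, which 2.36% of 254 exons of 234 nt reached. These shares describe sequence and say nothing of which site carries m6A.

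**Figure D4:**
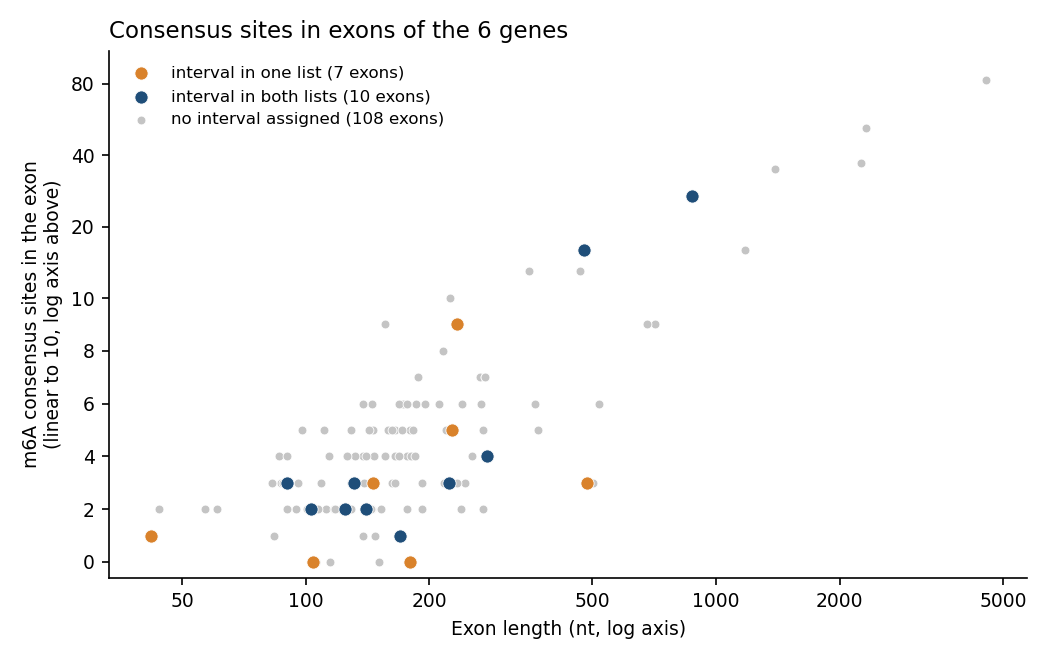
Consensus sites per exon (linear to 10, log above) against exon length (log axis) for all exons of the 6 genes. Colour gives the lists that hold an interval assigned to that exon by length and spacing. OCLN exons 1 and 9, with intervals placed by a border alone, count as exons with no interval assigned. TJP1 exons 21 and 25 are the 2 blue points at 27 and 16 sites, and 2 orange points lie at 0.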

How the data were processed

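Each condition had 1 deposited interval list of 6 columns. The submitters' processing notes name the aligner HISAT2 2.0.4 and the build hg19. Interval names start with MACS. The caller's settings, the handling of replicates and the choice of listed intervals were not given in the sources used here. Scores are the authors' values per deposited interval and were used for ranks within a list. Read depths were not used here, so the depth behind an interval is unknown.

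Every interval was classed over the whole lists as overlapping the other list (at least 1 bp on the same strand) before the members were read, with Python 3.11.15, pandas 2.3.3 and scipy 1.17.1. The overlap and motif steps were tested on simulated data. Positions count from 1. Widths were compared with exon lengths of GENCODE release 29, and sequences came from its transcripts. Exon pairs of CDH1 and CDH2 were aligned globally with Biopython. Spacing and this alignment were added after seeing the data. The consensus sites, the comparison with OCLNP1 and the 2 stretches of TJP1 were not among the planned results. With 1 list per condition no test was run. All 6 genes are named, by rule. Members and lists were chosen with earlier results of these data known. Lists of further junction and mesenchymal genes, and genes with a like pattern, were not analysed here, because the annotation used is of another build. The alternatives were members wholly inside the window, either strand, stricter overlap, the upper 50% by score, clipped lengths, other transcripts and a length tolerance of 5 nt.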

Additional observations from a re-analysis of the deposited data

How the results depend on the processing

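Of 55 values under alternatives, 45 stayed within 1.5 times the reported count or within counting error, and 10 moved. Members wholly inside the window, either strand, 50% reciprocal overlap, identical borders, clipped lengths, a tolerance of 5 nt, all protein-coding transcripts and the added requirement of equal spacing changed no count. The tolerance and the further transcripts could only keep or raise the 17 exon matches, so they could not show a loss. For VIM, which held no interval, stricter settings could not lower the count. The 10 that moved all came from keeping the upper 50% of each list by score. This left 8 members with knockdown and 6 in CSE, none of them in CDH1 or OCLN, and 75.0% of the knockdown and 100.0% of the CSE members then overlapped the other list. No paired analysis was possible because each condition has 1 list. Unknown read depth and the unstated selection of calls limit every comparison of listed with unlisted intervals.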
